A study of Mus musculus with 11 samples.

Results

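Fatty acid synthesis was described through 10 genes, *Srebf1*, *Thrsp*, *Acly*, *Me1*, *Acaca*, *Fasn*, *Elovl6*, *Scd1*, *Scd2* and *Gpam*, which were picked by gene name as enzymes and regulators of lipogenesis that mammary epithelium uses. All 10 were found among the 26283 genes of the deposited tables, and all 10 passed the filter on low counts that left 19232 genes to test.

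The samples are bulk RNA of 11 mammary tumors that C57BL/6 females had formed by 18 weeks of age, and the question was how tumors without *Pcbp1*, a gene for a poly(C)-binding protein, differ from tumors that keep it. The 6 PyMT *Pcbp1*–/– tumors carried the polyomavirus middle T oncogene (PyMT) and Cre recombinase, both under the MMTV promoter, with floxed alleles of *Pcbp1*. The 5 PyMT *Pcbp1*+/+ tumors carried the same MMTV-PyMT and MMTV-Cre transgenes with wild-type *Pcbp1* alleles. The MMTV promoter acts mainly in mammary epithelium. The labels do not say that each tumor came from a separate animal, so p-values measure the spread between these tumors. The estimated counts of a tumor summed to between 10543200 and 14092200, and 3 counts corresponded to between 0.213 and 0.285 CPM (counts divided by the tumor's total and scaled to a common sum).

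The targeted gene followed the labels in every tumor. *Pcbp1* was at 268, 271, 225, 220 and 259 CPM in PyMT *Pcbp1*+/+ replicates 1 to 5 but between 15.4 and 33.6 CPM, with a median of 20.9 CPM, in the PyMT *Pcbp1*–/– tumors. Every PyMT *Pcbp1*–/– tumor was thus far below every PyMT *Pcbp1*+/+ tumor, with a log2 fold change of −3.43 (SE 0.19, edgeR adjusted p = 4.72e-06).

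Cells build fatty acids in the cytosol from acetyl-CoA that ATP citrate lyase releases from citrate. Acetyl-CoA carboxylase makes malonyl-CoA, fatty acid synthase joins these units into palmitate with NADPH as the reductant, and elongases and stearoyl-CoA desaturases turn palmitate into longer and unsaturated chains. The pathway is under the control of the transcription factor SREBP1, supplies the triglyceride of milk in the lactating gland, and is active in many carcinomas.

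None of the 10 genes passed a test for a difference in RNA level between the genotypes. By edgeR's quasi-likelihood test with adjustment over all genes, 0 of 10 had an adjusted p under 0.05, beside 2.27% of all genes tested (1.66% lower and 0.608% higher in PyMT *Pcbp1*–/– tumors). Of the 10 genes, 0 had an unadjusted p under 0.05, beside 18.7% of all genes tested. DESeq2 and limma on log2(CPM + 1) also gave 0 of 10 by either measure, beside 6.27% and 1.66% of all genes at an adjusted and 19.4% and 17.4% at an unadjusted p under 0.05. With limma-voom with sample quality weights 0 of 10 had an adjusted p under 0.05, beside 11.2% of all genes, and 2 of 10, *Scd2* and *Srebf1*, an unadjusted p under 0.05, beside 30.3%. The log2 fold change was positive for 6 genes and negative for 4, with a median of 0.06, beside a median of −0.00012 and 50.0% positive values over all genes tested. With single tumors left out that median ran from 0.02 to 0.21, highest without PyMT *Pcbp1*+/+ replicate 5, and 5 of the 10 genes changed sign in at least 1 alternative. The groups overlapped for 10 of 10 genes, but the share among all genes tested was not computed, so this count cannot set these genes apart. A p above the threshold does not show equal levels, but all 10 of the 95% intervals lay within a 2-fold difference in either direction, and 5 lay within 1.5-fold. In bulk RNA, fewer cells of a type and less RNA per cell cannot be told apart.

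**Figure D1:**
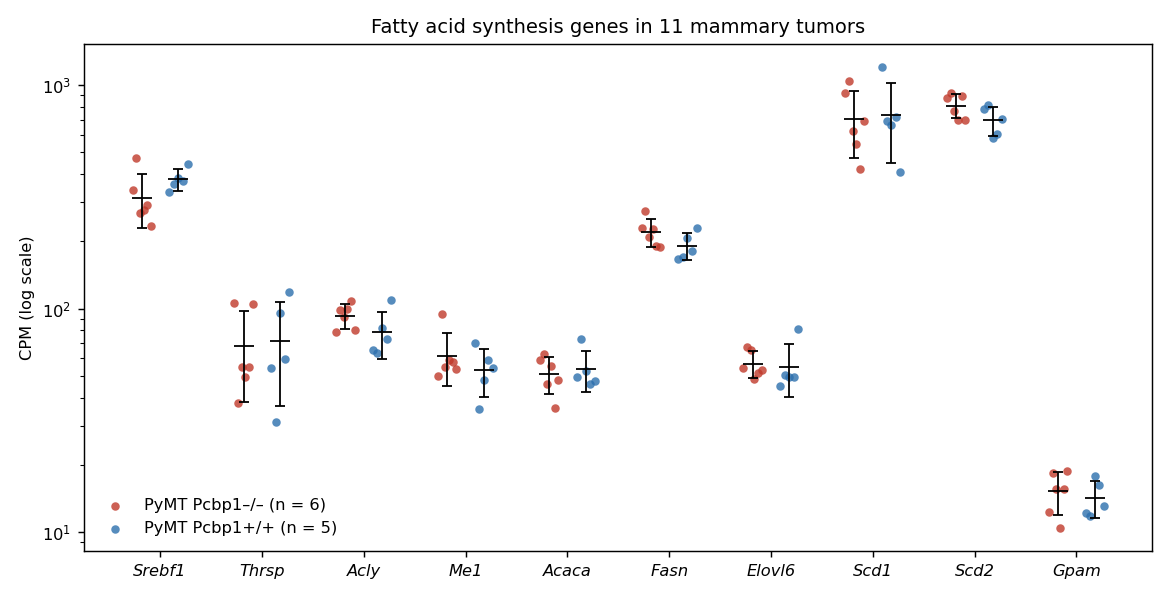
CPM of the 10 genes on a log scale in the 6 PyMT *Pcbp1*–/– tumors (red) and the 5 PyMT *Pcbp1*+/+ tumors (blue), with each point a tumor and bars for the mean and SD. The red and blue points overlap for every gene, and *Scd1* and *Thrsp* are spread most widely.

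The 10 genes include 2 regulators. *Srebf1* (ENSMUSG00000020538.15, chromosome 11 from 60199089 to 60222581, minus strand, in GRCm38 as all positions here) encodes SREBP1, which is cleaved from the membrane and binds the promoters of lipogenic genes. It was at 333, 360, 384, 371 and 445 CPM in replicates 1 to 5 of PyMT *Pcbp1*+/+, and between 235 and 471 CPM, with a median of 283 CPM, in PyMT *Pcbp1*–/– tumors. Only PyMT *Pcbp1*–/– replicate 2 exceeded the control median, and it also exceeded every control, so that the groups overlapped. The log2 fold change between means of 313 ± 84.5 CPM (SD, 6 tumors) and 379 ± 41.6 CPM (SD, 5 tumors) was −0.29 (SE 0.17, 95% interval −0.65 to 0.07, edgeR adjusted p = 0.377). Without replicate 2 it was −0.43 with an edgeR adjusted p of 0.0990, and over all alternatives the adjusted p of *Srebf1* ran from 0.0658 to 0.547. The last bases of *Srebf1*, from 60199089 to 60199197, overlap *Rai1* on the opposite strand, and whether counting used strand is not given in the sources used here.

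*Thrsp* (ENSMUSG00000035686.8, minus strand of chromosome 7 from 97412938 to 97417730), which encodes the thyroid hormone responsive protein Spot 14 of lipogenic tissues, varied most. It was at 54.2, 31.1, 95.2, 59.2 and 119 CPM in replicates 1 to 5 of PyMT *Pcbp1*+/+, and between 37.9 and 105 CPM, with a median of 54.7 CPM, in PyMT *Pcbp1*–/– tumors. High and low tumors occurred in both groups: replicates 1 and 6 of PyMT *Pcbp1*–/– and replicates 3 and 5 of PyMT *Pcbp1*+/+ were high, and replicate 2 was the lowest of each group. The highest tumor was 3.82 times the lowest, the largest ratio of the 10 genes, and the 95% interval of the log2 fold change of −0.11 was accordingly wide, from −0.91 to 0.69 (edgeR adjusted p = 0.901).

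Of the enzymes that supply acetyl-CoA and NADPH, *Acly* (ENSMUSG00000020917.17, minus strand of chromosome 11 from 100476353 to 100528000) encodes ATP citrate lyase. *Acly* was at 65.1, 63.2, 81.7, 72.9 and 109 CPM in replicates 1 to 5 of PyMT *Pcbp1*+/+, and between 78.9 and 108 CPM, with a median of 95.1 CPM, in PyMT *Pcbp1*–/– tumors. All 6 PyMT *Pcbp1*–/– tumors exceeded the control median, but control replicate 5 was the highest of the 11 tumors and the groups overlapped. *Acly* had a log2 fold change of 0.23 (SE 0.17, 95% interval −0.13 to 0.59, edgeR adjusted p = 0.488), which was 0.40 (adjusted p = 0.131) without that control. *Me1* (ENSMUSG00000032418.15, minus strand of chromosome 9 from 86581371 to 86695953), encodes the NADPH-producing malic enzyme of the cytosol. It was at 69.8, 35.5, 47.8, 58.6 and 54.1 CPM in replicates 1 to 5 of PyMT *Pcbp1*+/+, and 5 of the PyMT *Pcbp1*–/– tumors lay between 49.7 and 58.8 CPM. PyMT *Pcbp1*–/– replicate 2 stood apart at 94.1 CPM, above every control, while the others lay within the control range. For *Me1* the log2 fold change was 0.21 (SE 0.18, 95% interval −0.17 to 0.60, edgeR adjusted p = 0.555), and 0.07 without that tumor.

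The chain itself is started by the product of *Acaca* (ENSMUSG00000020532.18, plus strand of chromosome 11 from 84129672 to 84401651), acetyl-CoA carboxylase alpha. *Acaca* was at 49.3, 73.2, 52.7, 45.9 and 47.2 CPM in replicates 1 to 5 of PyMT *Pcbp1*+/+, and between 36.1 and 62.8 CPM, with a median of 51.8 CPM, in PyMT *Pcbp1*–/– tumors. The highest tumor was a control and the lowest a knockout, and 3 of 6 knockouts lay above the control median of 49.3 CPM. The log2 fold change of *Acaca* was −0.08 (SE 0.16, 95% interval −0.42 to 0.27, edgeR adjusted p = 0.835), and it turned to 0.06 without control replicate 2.

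*Fasn* (ENSMUSG00000025153.9, minus strand of chromosome 11 from 120805846 to 120824547) encodes fatty acid synthase, the multienzyme that makes palmitate. It was at 166, 171, 207, 181 and 230 CPM in replicates 1 to 5 of PyMT *Pcbp1*+/+, and between 188 and 273 CPM, with a median of 218 CPM, in PyMT *Pcbp1*–/– tumors. All 6 PyMT *Pcbp1*–/– tumors exceeded the control median of 181 CPM, yet control replicates 3 and 5 lay within their range. The means of 219 ± 31.4 CPM (SD, 6 tumors) and 191 ± 26.9 CPM (SD, 5 tumors) gave a log2 fold change of 0.18 (SE 0.13), which was within the spread between tumors (edgeR adjusted p = 0.495). With single tumors left out it ran from 0.11 (without control replicate 1) to 0.28 (without control replicate 5), where the unadjusted p was under 0.05 and the edgeR adjusted p 0.246. Its 95% interval, from −0.11 to 0.47, placed *Fasn* RNA in PyMT *Pcbp1*–/– tumors between 0.927 and 1.39 times the control level.

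Beyond palmitate, *Elovl6* (ENSMUSG00000041220.10, plus strand of chromosome 3 from 129532355 to 129638495) encodes the elongase that makes stearate. *Elovl6* was at 45.2, 50.5, 49.2, 49.2 and 80.8 CPM in replicates 1 to 5 of PyMT *Pcbp1*+/+, and between 48.5 and 67.3 CPM, with a median of 53.6 CPM, in PyMT *Pcbp1*–/– tumors. Control replicate 5 stood apart from the other controls and was the highest of all tumors. With this tumor the log2 fold change of *Elovl6* was 0.03 (SE 0.17, 95% interval −0.34 to 0.39, edgeR adjusted p = 0.948) and without it 0.24 (adjusted p = 0.260).

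*Scd1* and *Scd2* encode stearoyl-CoA desaturases, which place a double bond in saturated chains, and lie close to each other on chromosome 19 (*Scd2*, ENSMUSG00000025203.5, plus strand from 44293676 to 44306864; *Scd1*, ENSMUSG00000037071.2, minus strand from 44394451 to 44407709). *Scd2* was at 780, 812, 576, 606 and 702 CPM in replicates 1 to 5 of PyMT *Pcbp1*+/+, and between 698 and 922 CPM, with a median of 820 CPM, in PyMT *Pcbp1*–/– tumors. The 3 highest tumors were PyMT *Pcbp1*–/– and the 2 lowest were PyMT *Pcbp1*+/+, with overlap between. *Scd2* had the smallest adjusted p of the 10 genes, with a log2 fold change of 0.22 (SE 0.11, 95% interval −0.03 to 0.46, edgeR adjusted p = 0.325).

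*Scd1* was far more variable than *Scd2*. It was at 1203, 687, 665, 721 and 407 CPM in replicates 1 to 5 of PyMT *Pcbp1*+/+, and between 422 and 1044 CPM, with a median of 656 CPM, in PyMT *Pcbp1*–/– tumors. Both the highest and the lowest tumor were controls, so that the controls enclosed the knockouts. The log2 fold change of *Scd1* was −0.05 (SE 0.25, 95% interval −0.59 to 0.50, edgeR adjusted p = 0.943), and it turned to 0.17 without control replicate 1.

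The balance of the 2 desaturases also differed more between tumors than between genotypes. The ratio of *Scd1* to *Scd2* CPM was 1.54, 0.846, 1.15, 1.19 and 0.580 in PyMT *Pcbp1*+/+ replicates 1 to 5, and 1.06, 1.13, 0.815, 0.777, 0.474 and 0.985 in PyMT *Pcbp1*–/– replicates 1 to 6. *Scd1* exceeded *Scd2* in 3 of 5 controls and 2 of 6 knockouts. The mean log2 ratio was −0.25 ± 0.46 (SD, n = 6) in PyMT *Pcbp1*–/– and 0.01 ± 0.54 (SD, n = 5) in PyMT *Pcbp1*+/+ tumors (p = 0.405 by an exact permutation test on both sides). The estimated counts of *Scd1*, *Scd2* and *Gpam* were whole within 0.001 in every tumor. Whole totals do not show how single reads were assigned, and how reads shared by the similar *Scd* genes were counted is not given in the sources used here.

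*Gpam* (ENSMUSG00000024978.10, minus strand of chromosome 19 from 55069734 to 55099451) encodes a mitochondrial acyltransferase that passes fatty acids into glycerolipids. It was at 12.2, 11.9, 17.9, 16.2 and 13.1 CPM in replicates 1 to 5 of PyMT *Pcbp1*+/+, and between 10.5 and 18.8 CPM, with a median of 15.6 CPM, in PyMT *Pcbp1*–/– tumors. Both extremes were knockouts. The log2 fold change of *Gpam* was 0.09 (SE 0.18, 95% interval −0.31 to 0.48, edgeR adjusted p = 0.839), and limma-voom with sample quality weights gave −0.12.

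**Figure D2:**
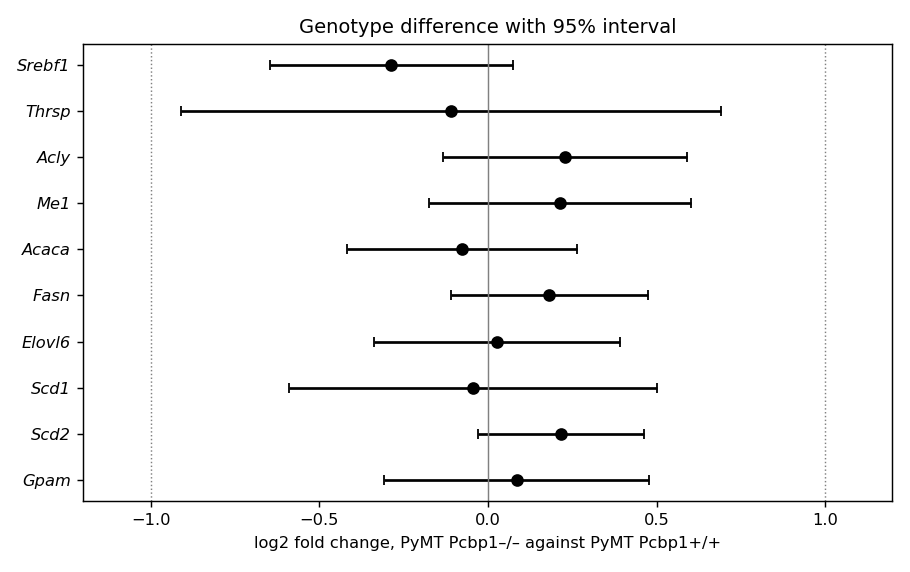
Log2 fold change of each of the 10 genes between PyMT *Pcbp1*–/– and PyMT *Pcbp1*+/+ tumors by edgeR, with points for the estimate, bars for the 95% interval and dotted lines at a 2-fold difference. All 10 intervals include 0 and none reaches a dotted line, with *Thrsp* the widest, from −0.91 to 0.69.

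Per kilobase of the canonical transcript, the desaturases were the most abundant of the 10 genes, at 143 ± 49.2 CPM per kb for *Scd1* and 139 ± 20.7 CPM per kb for *Scd2* (SD over all 11 tumors). *Scd1* was above *Scd2* on this scale in 6 of 11 tumors, so these neighbors could not be ordered. *Srebf1* followed at 79.1 ± 17.0 CPM per kb and *Thrsp* at 54.5 ± 23.9 CPM per kb, with *Scd2* above *Srebf1* in 11 of 11 tumors and *Srebf1* above *Thrsp* in 9 of 11. *Acly* and *Fasn* were level at 19.5 ± 3.67 and 19.1 ± 2.92 CPM per kb, with *Acly* higher in 5 of 11 tumors. Below them came *Me1* at 13.9 ± 3.53, *Elovl6* at 9.12 ± 1.75, *Acaca* at 5.50 ± 1.05 and *Gpam* at 2.47 ± 0.490 CPM per kb, each below its neighbor in at least 10 of 11 tumors. Over tumors, the ranges of neighbors in this order overlapped, except those of *Acaca* and *Gpam*.

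PyMT *Pcbp1*–/– replicate 2 came closest to a tumor high in the pathway: 9 of the 10 genes were above their mean over the 11 tumors, *Thrsp* being the exception, with a median deviation of 0.31 on the log2(CPM + 1) scale. In the other tumors between 3 and 6 genes were above their mean, and median deviations lay between −0.19 and 0.09. In PyMT *Pcbp1*+/+ replicate 5, *Acly*, *Elovl6* and *Thrsp* were at their highest and *Scd1* at its lowest.

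Correlations over the 11 tumors were computed on log2(CPM + 1) for all 45 pairs of the 10 genes, and 0 of 45 passed Benjamini-Hochberg adjustment of permutation p-values (smallest adjusted p = 0.505 for Pearson's r and 0.309 for Spearman's rho). The r was positive in 32 of 45 pairs, with a median of 0.181. At an unadjusted p of r under 0.05 there were 4 pairs. *Fasn* and *Acly* had r = 0.689 (permutation p = 0.0194) and rho = 0.709 (permutation p = 0.0184), with r = 0.613 without the 2 tumors farthest from the median of *Fasn*. Within the 6 PyMT *Pcbp1*–/– tumors, however, their r was 0.124. *Fasn* and *Elovl6* had r = 0.640 (permutation p = 0.0345) and rho = 0.700 (permutation p = 0.0206), with r = 0.469 without 2 tumors and 0.501 within PyMT *Pcbp1*–/– tumors. *Acly* and *Elovl6* had r = 0.612 (permutation p = 0.0449) but rho = 0.482 (permutation p = 0.138), with r = 0.604 without 2 tumors and 0.0107 within PyMT *Pcbp1*–/– tumors. *Acly* and *Scd1* ran in opposite directions, with r = −0.623 (permutation p = 0.0429) and rho = −0.700 (permutation p = 0.0204). The size of this relation depended on 2 tumors, as r was −0.301 without those farthest from the median of *Acly* (−0.523 within PyMT *Pcbp1*–/– tumors). The labels give a single batch, so no relation could be recomputed within batches.

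Outside the 10 genes, the RNA most like *Fasn* over the 11 tumors included sterol enzymes. Among 19222 genes, the 6 with the highest Pearson r to *Fasn* were *Cyp51* (r = 0.891, rho = 0.800), *Tecr* (r = 0.888, rho = 0.900), *RP23-70G12.3* (r = 0.880, rho = 0.773), *Fgfbp3* (r = 0.879, rho = 0.782), *Sypl2* (r = 0.876, rho = 0.773) and *Fdps* (r = 0.874, rho = 0.909). *Cyp51* encodes lanosterol demethylase and *Fdps* farnesyl diphosphate synthase, both of cholesterol synthesis, and *Tecr* encodes the reductase that completes each round of elongation of very long chains. These genes were picked for their r, so that no test applies to it. Of 22 cholesterol synthesis genes tested, 11 had an r to *Fasn* above 0.5, with a median r of 0.493, beside 5.14% of all genes tested and a median of −0.0668. To *Srebf1*, 7 of the 22 (31.8%, median r 0.283) had an r above 0.5, beside 9.50% of all genes tested. The share was larger among endothelial markers, of which 3 of 5 (60%, median r 0.519) had an r to *Srebf1* above 0.5. The 6 genes most like *Srebf1* were *Sin3b* (r = 0.935), *RP24-293C5.5* (r = 0.928), *Zbtb49* (r = 0.925), *Trim46* (r = 0.920), *RP23-212H13.8* (r = 0.911) and *Tmem221* (r = 0.909), with rho between 0.891 and 0.936. *Fasn* and *Srebf1* themselves had r = 0.396 and rho = 0.345 (permutation p = 0.224 and 0.300), with r = 0.136 without 2 tumors and 0.885 within the 6 PyMT *Pcbp1*–/– tumors.

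**Figure D3:**
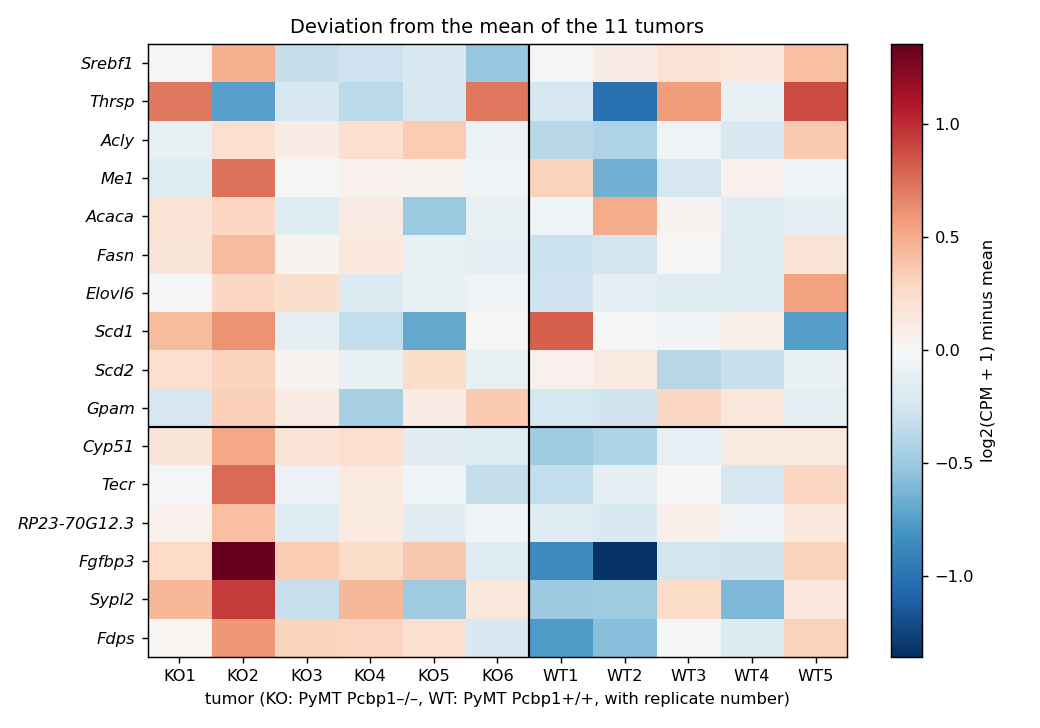
Deviation of log2(CPM + 1) from the mean of the 11 tumors, by color, for the 10 genes (above the line) and the 6 genes with the highest r to *Fasn* (below), with PyMT *Pcbp1*–/– tumors (KO) left and PyMT *Pcbp1*+/+ tumors (WT) right. KO2 is high in 9 of the 10 genes, and the genes below the line follow the *Fasn* row, high in KO2 and low in WT1 and WT2.

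The promoters of *Fasn*, *Cyp51* and *Tecr* are shown as those of lipid enzymes that varied together. Of the other genes most like *Fasn*, the window of *Fgfbp3* held 1 CCAAT, and that of *Sypl2* held none but 1 CACGTG. RefSeq windows of 250 bases before the start (GRCm38.p6) were matched for 8 of the 10 genes, all but *Scd1* and *Scd2*, with 12 windows in all. Not every window adjoins the deposited gene start. That of *Acaca* (chr11:84195188-84195437) lies inside the gene, as do windows of *Srebf1* and *Me1*, and a window of *Gpam* (chr19:55127239-55127488) lies far upstream. CCAAT, the box bound by NF-Y, a partner of SREBP, was searched on both strands. It was found in 6 of the 12 windows, beside 33.8% of 32851 windows of all genes. The 6 belonged to *Fasn*, *Srebf1*, *Thrsp*, *Me1* and *Gpam*, while another window each of *Srebf1*, *Me1* and *Gpam* held none. CACGTG, an E-box, and TCACNCCAC, a sterol response element, were in 0 of 12, beside 6.02% and 1.05% of all windows. The sequences run 5′ to 3′ on the minus strand, with CCAAT or its reverse complement in capitals. *Fasn* (chr11:120824548-120824797) and *Tecr* (chr8:83594492-83594741) held 3 matches each, of which 2 in *Fasn* lie side by side and share bases, and *Cyp51* (chr5:4104698-4104947) held 1. A match is a run of letters and not evidence of binding.
Fasn: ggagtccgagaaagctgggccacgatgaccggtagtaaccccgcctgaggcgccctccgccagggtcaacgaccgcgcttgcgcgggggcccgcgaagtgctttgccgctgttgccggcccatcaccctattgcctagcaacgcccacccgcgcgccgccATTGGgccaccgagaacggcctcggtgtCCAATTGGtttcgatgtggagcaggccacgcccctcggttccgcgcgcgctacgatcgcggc
Cyp51: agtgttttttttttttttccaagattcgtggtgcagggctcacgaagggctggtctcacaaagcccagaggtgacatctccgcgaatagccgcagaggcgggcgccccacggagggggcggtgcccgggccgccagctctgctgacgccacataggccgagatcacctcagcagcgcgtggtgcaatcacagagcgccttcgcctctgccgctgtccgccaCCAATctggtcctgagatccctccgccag
Tecr: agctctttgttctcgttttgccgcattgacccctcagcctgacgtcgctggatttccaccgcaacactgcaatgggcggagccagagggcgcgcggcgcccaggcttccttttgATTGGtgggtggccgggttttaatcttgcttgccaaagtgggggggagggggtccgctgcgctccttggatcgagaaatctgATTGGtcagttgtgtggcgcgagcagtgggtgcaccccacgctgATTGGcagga

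The wider pathway was followed in 6 lists with 115 genes, of which 106 were tested. By edgeR 0 of 106 had an adjusted p under 0.05, and 21 (19.8%, 8 lower and 13 higher) had an unadjusted p under 0.05, beside 18.7% of all genes tested. At an adjusted p under 0.05, DESeq2 gave 4 (3.77%, beside 6.27% of all genes), limma-voom with sample quality weights 7 (6.60%, beside 11.2%) and limma on log2(CPM + 1) 0 (beside 1.66%). The median log2 fold change of the 106 genes was 0.07.

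The genes of carbon and NADPH supply had positive log2 fold changes in 8 of 10 cases, with a median of 0.20. They were led by *Mdh1*, cytosolic malate dehydrogenase, at 0.30 (SE 0.14), and *Taldo1*, transaldolase, at 0.29 (SE 0.12). The negative ones were *Pgd* at −0.21 and *Tkt* at −0.09 (−0.12 and −0.05 without control replicate 5). Other enzymes of the fatty acid chain were positive in 13 of 20 cases, with a median of 0.10. They reached from *Fads3*, a desaturase family member, at −0.64 (SE 0.29) and *Acacb*, the mitochondrial form of acetyl-CoA carboxylase, at −0.59 (SE 0.29) to *Elovl4* at 0.41 (SE 0.52) and *Hacd2*, a dehydratase of elongation, at 0.56 (SE 0.23). With single tumors left out, *Fads3* ran from −0.77 to −0.33 (−0.15 with limma-voom with sample quality weights) and *Elovl4* from 0.10 to 0.89. The adjusted p of these 8 genes lay above 0.2 by edgeR.

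Regulators of SREBP and of lipogenesis were positive in 6 of 21 cases, with a median of −0.10. *Prkaa2*, which encodes a catalytic subunit of AMP-activated kinase, an inhibitor of acetyl-CoA carboxylase, came closest to the threshold of all 106 genes. It ranged from 60.1 to 111 CPM in PyMT *Pcbp1*–/– and from 42.9 to 72.3 CPM in PyMT *Pcbp1*+/+ tumors, with a log2 fold change of 0.65 (SE 0.16, edgeR adjusted p = 0.0536, and between 0.00529 and 0.170 over all alternatives). The second catalytic subunit, *Prkaa1*, was at 0.28 (SE 0.10, edgeR adjusted p = 0.170). *Mlxipl*, which encodes the carbohydrate-responsive factor ChREBP, was at −0.68 (SE 0.29, edgeR adjusted p = 0.236), and the coactivator gene *Ppargc1b* at −0.38 (SE 0.16, edgeR adjusted p = 0.235).

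Genes of acyl-CoA and glycerolipid synthesis were positive in 9 of 16 cases (median 0.05). They ran from *Agpat3* at −0.24 (−0.15 without control replicate 4) and *Acsl1* at −0.20 (−0.05 without control replicate 3) to *Dgat1* at 0.30 and *Agpat5* at 0.43. Cholesterol synthesis genes were positive in 16 of 22 cases (median 0.10). *Acat2*, the cytosolic acetoacetyl-CoA thiolase, was at 0.47 (SE 0.15, edgeR adjusted p = 0.125) and *Fdps* at 0.43, while *Mvk*, mevalonate kinase, was at −0.53 (SE 0.19, edgeR adjusted p = 0.163) and *Tm7sf2* at −0.26. Fatty acid oxidation genes, which act in the reverse direction, were positive in 10 of 17 cases (median 0.04). *Slc25a20*, the carnitine carrier, was at 0.38 (SE 0.09, edgeR adjusted p = 0.0558) and *Acaa2* at 0.36. The acyl-CoA dehydrogenase genes *Acadl* and *Acadvl* were at −0.37 (SE 0.10, edgeR adjusted p = 0.0896) and −0.37 (SE 0.18, edgeR adjusted p = 0.278). *Acadl* passed an adjusted p of 0.05 with DESeq2, with limma-voom and, by edgeR, without control replicate 2. *Acadvl* weakened to −0.24 without control replicate 2, and to −0.18 at the weakest of the alternatives that kept all tumors or used the block.

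Mammary tumors also hold fat, in which these enzymes are abundant, so marker genes of adipocytes and of epithelium were set beside the 10 genes. The 10 luminal epithelial markers, with *Cdh1* the most abundant, summed to 2109, 1512, 1669, 2099 and 2035 CPM in replicates 1 to 5 of PyMT *Pcbp1*+/+, and to 1294, 1598, 2028, 1931, 2486 and 1811 CPM in replicates 1 to 6 of PyMT *Pcbp1*–/–. None of these markers was at 0 in any tumor. RNA of luminal epithelial markers was thus found in all tumors. The 16 adipocyte markers, with *Pnpla2* the most abundant, summed to 99.0, 66.0, 320, 126 and 113 CPM in replicates 1 to 5 of PyMT *Pcbp1*+/+, and to 159, 103, 69.7, 76.1, 65.3 and 150 CPM in PyMT *Pcbp1*–/– replicates 1 to 6. Fat markers were thus uneven, and highest in control replicate 3. All 13 adipocyte markers tested had a negative log2 fold change (median −0.80), 0 of 13 at an adjusted or unadjusted p under 0.05 by edgeR. This direction rested on control replicate 3, since without it 8 of 13 were positive, with a median of 0.28, and the sums averaged 104 CPM in PyMT *Pcbp1*–/– and 101 CPM in PyMT *Pcbp1*+/+ tumors. Of the 6 defining adipocyte markers, *Adipoq* was at 0 in 1 tumor, *Cidec* in 1 and *Retn* in 2.

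Each of the 10 genes was correlated with the summed luminal markers and with the summed defining adipocyte markers, which made 20 relations. *Acaca* ran against the luminal sum, with r = −0.833 (permutation p = 0.00156, adjusted p = 0.0312) and rho = −0.818 (permutation p = 0.00323, adjusted p = 0.0646). It held without the 2 tumors farthest from the median of the luminal sum (r = −0.856) and within the 6 PyMT *Pcbp1*–/– tumors (r = −0.846). Tumors with more luminal marker RNA, such as PyMT *Pcbp1*–/– replicate 5, thus had less *Acaca*. *Thrsp* tended to be higher in tumors with more defining adipocyte marker RNA, with r = 0.718 (permutation p = 0.0136, adjusted p = 0.136) and rho = 0.627 (permutation p = 0.0437, adjusted p = 0.437), with r = 0.750 without 2 tumors and 0.718 within PyMT *Pcbp1*–/– tumors. This relation did not pass adjustment, and the part of fat in the level of *Thrsp* was not tested. *Fasn* had r = 0.199 to the defining adipocyte sum and −0.331 to the luminal sum (permutation p = 0.558 and 0.322).

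Other cell types were followed in 11 further lists. In all 13 marker lists 0 of 74 genes tested had an adjusted p under 0.05 by edgeR and 8 (10.8%, beside 18.7% of all genes) an unadjusted p under 0.05. Those 8 were 4 of 8 dividing cell, 2 of 8 macrophage, 1 of 10 milk and 1 of 8 basal and myoepithelial markers. At an adjusted p under 0.05, DESeq2 gave 4 (5.41%, beside 6.27% of all genes), limma-voom with sample quality weights 9 (12.2%, beside 11.2%) and limma on log2(CPM + 1) 1 (1.35%, beside 1.66%). The DESeq2 calls were the dividing cell markers *Ccnb1*, *Cdk1* and *Mki67* and the macrophage marker *Lyz2*. Limma-voom called these 4 and *Plk1*, *Top2a*, *Csn3*, *Lalba* and *Plin4*, and limma on log2(CPM + 1) called *Lyz2*. The 8 dividing cell markers were all positive (median log2 fold change 0.40). They were led by *Mki67*, at 449 CPM in PyMT *Pcbp1*–/– and 320 CPM in PyMT *Pcbp1*+/+ tumors on average. Their sums were 582 and 421 CPM (exact permutation p = 0.0130, adjusted p = 0.169 over 13 sums). The 8 macrophage markers, led by *Lyz2*, at 193 and 94.4 CPM, were all positive too (median 0.29). They summed to 398 and 265 CPM (exact permutation p = 0.0368, adjusted p = 0.239). Neither of these 2 lists was summed without its most abundant gene, which made up much of the difference. With single tumors left out, the median ran from 0.27 to 0.48 for dividing cell markers (6 of 8 positive at the lowest) and from 0.15 to 0.43 for macrophage markers (8 of 8 throughout). The 14 markers of milk and secretory alveoli, the cells with the highest lipogenesis in lactation, were led by *Csn3*, at 609 and 1422 CPM, and summed to 1798 and 2603 CPM (exact permutation p = 0.0671, adjusted p = 0.291). The difference of the sums was carried by *Csn3* (log2 fold change −1.22, SE 0.43, edgeR adjusted p = 0.150), as the sums without it were 1189 and 1181 CPM. *Csn3* passed an adjusted p of 0.05 with limma-voom with sample quality weights and, by edgeR, without control replicate 2. Of the less abundant milk protein genes, chosen after their values were seen, *Lalba* was at −1.07 (edgeR adjusted p = 0.281) and *Csn2* at −1.58 (edgeR adjusted p = 0.424). *Csn2* was scarce, with means of 0.612 CPM in PyMT *Pcbp1*–/– and 1.82 CPM in PyMT *Pcbp1*+/+ tumors. *Csn1s1* was at 0.59 (edgeR adjusted p = 0.644) and *Wap* at 0.11 (edgeR adjusted p = 0.959). The median log2 fold change of the list was −0.03, with 4 of 10 positive. Its sign hung on single tumors, from −0.22 without control replicate 2 to 0.13 without PyMT *Pcbp1*–/– replicate 2 (7 of 9 positive). *Csn1s2a* was at 0 in 1 tumor and *Csn2* in 2. The part of these cells in the levels of the 10 genes was not tested.

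The 6 fibroblast markers, led by *Col1a1*, were positive in 5 cases (median log2 fold change 0.31, from 0.14 to 0.45 with single tumors left out) and summed to 660 and 544 CPM (exact permutation p = 0.316, adjusted p = 0.822). All 5 endothelial markers, led by *Cdh5*, were negative (median −0.15), with sums of 62.4 and 72.2 CPM (exact permutation p = 0.273, adjusted p = 0.822). Their median ran from −0.26 to −0.09 with single tumors left out, with 3 of 5 negative at the fewest (without control replicate 4). The 8 basal and myoepithelial markers, led by *Mylk*, had a median of 0.003, were positive in 4 cases and summed to 477 and 522 CPM. Their direction hung on single tumors, with a median from −0.26 (without control replicate 2) to 0.64 (without control replicate 1, with 7 of 8 positive and sums of 477 and 346 CPM). Brown adipocyte markers summed to at most 19.3 CPM in any tumor (*Dio2*), with *Ucp1* at 0 in 10 tumors, *Cox8b* in 5 and *Cidea* in 2. T cell markers summed to at most 8.02 CPM (*Cd8a*), with *Cd3d* at 0 in 5 tumors. Skeletal muscle markers summed to at most 27.0 CPM (*Acta1*), and *Myh4* and *Tnnt3* were at 0 in 7 tumors, *Actn3* in 6, *Mylpf* in 5 and *Ckm* in 3. The B cell marker *Cd79b* and the hepatocyte marker *Apob* stayed at or below 0.773 and 1.72 CPM, and the hepatocyte markers *Alb*, *Apoa1*, *Ttr* and *Serpina1c*, like *Pc*, *Elovl2* and *Elovl3* of the pathway lists, were not analysed here.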

How the data were processed

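RNA from 11 tumors was sequenced by the authors as paired-end reads on a NovaSeq instrument and aligned to GRCm38 with Bowtie2, with gene tests in Partek Flow. How reads were counted, and over which annotation version, is not given in the sources used here. The authors deposited estimated counts per gene, not whole in 18.1% to 19.8% of values and with no row total under 10, and the same values as CPM, each divided by its tumor's total. The labels name stranded poly(A) libraries and a single batch.

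Estimated counts were rounded to whole numbers and tested with edgeR 4.0.16 (R 4.3.3): TMM factors, default filter on low counts, quasi-likelihood test with genotype as the only term, Benjamini-Hochberg adjustment over 19232 genes. Alternatives were DESeq2 1.42.0, limma 3.58.1, other scalings and filters, protein-coding genes only, the replicate number as a block, and each tumor left out in turn. The fits were tested on simulated data. Exact permutation tests took all splits of 6 against 5 tumors, and correlations used 100000 permutations.

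The 10 genes and the lists were chosen with earlier results of these data known. Genes were named by a rule: the 10 genes, *Pcbp1*, list genes past an adjusted p of 0.05, the 2 highest and 2 lowest log2 fold changes of each pathway list, each marker list's most abundant gene and defining genes at 0, and the 6 genes with the highest r to *Fasn* and to *Srebf1*. Transcript lengths came from the Ensembl-canonical transcripts of GENCODE for GRCm39, matched by Ensembl identifier, with no coordinates taken from it. Ends of genes were taken 1 base before the deposited stop.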

Additional observations from a re-analysis of the deposited data

Results flagged for a closer look

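In 10 of 106 groups of values examined, a single tumor stood far from the others of its genotype by Dixon's test, where chance gives about 1 in 20 groups. Of these, 7 were among 84 groups (4.2 by chance), and 3 (*Tecr*, *Fgfbp3* and *RP23-212H13.8*) among 22 groups of genes picked for their r to *Fasn* or *Srebf1*, which peak in the same tumor, so that no chance count applies to them. PyMT *Pcbp1*–/– replicate 2 was high for *Me1*, at 94.1 CPM against at most 58.8 CPM in the rest of its group, and likewise for *Tecr* (27.5 against 17.4 CPM), *Fgfbp3* (16.4 against 7.74 CPM) and *RP23-212H13.8* (21.97 against 13.1 CPM). *Acaca* was high in PyMT *Pcbp1*+/+ replicate 2, at 73.2 against 52.7 CPM, and *Elovl6* in PyMT *Pcbp1*+/+ replicate 5, at 80.8 against 50.5 CPM. *Acaa2* was high in PyMT *Pcbp1*+/+ replicate 4, at 8.84 against 6.83 CPM.

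Among summed markers, adipocyte markers reached 320 CPM in PyMT *Pcbp1*+/+ replicate 3 against 126 CPM in the next control. Basal and myoepithelial markers reached 1226 CPM in PyMT *Pcbp1*+/+ replicate 1 against 449 CPM. Dividing cell markers were low in PyMT *Pcbp1*–/– replicate 1, at 417 CPM against at least 578 CPM in the rest of its group.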

How the results depend on the processing

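The count of fatty acid synthesis genes at an adjusted p under 0.05 was 0 of 10 in all 21 alternatives, with a smallest adjusted p of 0.0658 (*Srebf1*, limma-voom with sample quality weights). Of 210 log2 fold changes of the 10 genes, 196 kept their sign, and 5 genes never changed it. *Gpam* reversed to −0.12 with limma-voom. Leaving out each tumor in turn moved *Acaca* between −0.14 and 0.057, *Scd1* between −0.18 and 0.17, *Elovl6* between −0.056 and 0.24 and *Thrsp* between −0.30 and 0.18, all around 0, and the median of the 10 genes between 0.022 and 0.21, highest without PyMT *Pcbp1*+/+ replicate 5. At an unadjusted p under 0.05 that fit held *Fasn* and *Acly*, the fit without PyMT *Pcbp1*–/– replicate 2 *Srebf1*, and the fit without PyMT *Pcbp1*+/+ replicate 2 *Scd2*, where 20.1%, 20.8% and 20.1% of all genes had such a p. The lowest count of any of the 10 genes in a tumor was 125 (*Gpam*).

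Over all genes, 436 passed (26.8% higher), against 1205 with DESeq2 (40.0% higher), 2158 with limma-voom (44.9% higher) and between 186 and 541 with a tumor left out. Pathway list genes passing were 0, against 4 with DESeq2 (3.77%, beside 6.27% of all genes) and 7 with limma-voom (6.60%, beside 11.2%). With a tumor left out they were between 0 and 3. DESeq2 called *Acadl*, *Prkaa2*, *Slc25a20* and *Nr1h2*, the last named after its values were seen. Limma-voom called *Acadl*, *Acat2*, *Acsl3*, *Elovl5*, *Prkaa1*, *Prkaa2* and *Slc25a20*. Without PyMT *Pcbp1*–/– replicate 1 the call was *Prkaa2* (0.943% of list genes, beside 1.64% of all genes). Without PyMT *Pcbp1*+/+ replicate 2 the 3 were *Acadl*, *Acsl3* and *Elovl5* (2.83%, beside 2.78%). The cause of these differences was not tested. Of 504 values of the 24 named list genes, 0 reversed, but 7 genes moved by more than 1.5 times in some alternative.

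With the replicate number as a block (10 tumors), 160 of all genes and 0 of the 10 passed, with *Acly* and *Scd2* at an unadjusted p under 0.05, beside 18.1% of all genes. The deviations of same-numbered tumors had r from −0.144 to 0.293. The knockout most like a control bore the same number for control replicates 2 and 5, and was replicate 6 for the others. These values show no pairing by number throughout, and the labels do not say what the numbers mark.

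Chosen after seeing the data were alternatives for correlations, ratios and marker lists. With a tumor left out, r of *Acaca* to luminal markers ran from −0.911 to −0.754, and the log2 ratio of *Scd1* to *Scd2* differed by −0.46 to −0.10. The median of adipocyte markers ran from −1.10 to 0.28, reversed without PyMT *Pcbp1*+/+ replicate 3, that of basal and myoepithelial markers from −0.26 to 0.64, and the difference of summed milk markers was 8.51 CPM without *Csn3*. The cause was not tested.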
